A study of Mus musculus with 18 samples.

Results

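Expression of 10 genes linked to cell quiescence and to FoxO transcription factors was followed through DN3 and DP thymocytes of grafted mouse thymi. The genes were Pik3ip1, Btg1, Btg2, Klf2, Klf9, Foxo1, Hbp1, Ccng2, Pdcd4 and Tsc22d3, 10 of the 22619 genes in the deposited count table. They were picked by name, partly for their lower level in DN3 cells of the autonomy condition. Their values in DN3 autonomy against DN3 turnover, and in any contrast that uses DN3 libraries, are therefore a description with no test, and the members were tested only between the DP groups.

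All 18 libraries came from wild-type thymi that had been transplanted 28 days earlier, and cells were sorted as DN3, a double-negative stage in which the beta chain of the T-cell receptor is rearranged, or DP, the later stage with both CD4 and CD8. The groups were DN3 turnover with 4 libraries, DN3 autonomy with 5, DP turnover with 4 and DP autonomy with 5. Turnover is the state in which thymocytes are replaced by progenitors that enter from outside, and autonomy the state in which the graft maintains its thymocytes without them. The genotype of the hosts and the strain, sex and age of hosts and donors were not found in the labels. Nothing in the labels ties the libraries of a group to separate animals, and among turnover libraries RP1140 and RP1141 each stand for an A and a B library. The p-values therefore describe the spread over libraries only, which may be partly technical.

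Quiescence is the reversible resting state of a cell outside the division cycle. Signals through PI3 kinase and Akt push FoxO factors out of the nucleus and raise mTORC1 activity and translation, and with that signal withdrawn FoxO factors return to the nucleus and switch on genes that slow growth and division. In the thymus, DN3 cells that pass the checkpoint for the pre-T-cell receptor go through a burst of division before they become small, mostly resting DP cells. The members stand at several steps of this system. Pik3ip1 is a membrane protein that lowers PI3 kinase activity, and Foxo1 is a FoxO factor itself. Klf2 and Klf9 are zinc-finger transcription factors. Btg1 and Btg2 bring the CCR4-NOT deadenylase to mRNAs and restrain division. Hbp1 is an HMG-box repressor of cell-cycle genes, Ccng2 an unconventional cyclin linked to arrest, Pdcd4 an inhibitor of the helicase eIF4A in translation, and Tsc22d3 encodes GILZ, a leucine zipper protein induced by glucocorticoids.

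RefSeq promoters of the 10 members, each 300 bases from 250 before to 50 after a transcription start on GRCm38.p6, numbered 13 and were searched on both strands for short motifs. The forkhead motif TGTTTAC, the sequence that FoxO factors are known to prefer, was found in 3 of the 13, those of Btg1, Hbp1 and Klf9, against 3.65% of all 32851 promoters. It began 204 bases before the start in Btg1 as written, and 149 bases before the start in Hbp1 and 100 before it in Klf9 as its reverse complement, GTAAACA. The cAMP response element TGACGTCA was found in Btg2 alone among the members, 166 bases before the start, against 1.79% of all promoters. These 4 promoters are shown because they hold the rarer motifs, in capitals, and because 3 of the 4 genes had separate DN3 groups below.
Btg1, chr10:96616751-96617050, plus strand: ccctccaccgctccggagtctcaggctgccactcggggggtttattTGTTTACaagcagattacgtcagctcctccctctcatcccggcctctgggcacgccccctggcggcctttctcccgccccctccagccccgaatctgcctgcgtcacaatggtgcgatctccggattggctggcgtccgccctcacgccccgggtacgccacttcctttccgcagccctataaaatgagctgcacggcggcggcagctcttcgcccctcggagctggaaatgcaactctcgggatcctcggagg
Hbp1, chr12:31950196-31950495, minus strand: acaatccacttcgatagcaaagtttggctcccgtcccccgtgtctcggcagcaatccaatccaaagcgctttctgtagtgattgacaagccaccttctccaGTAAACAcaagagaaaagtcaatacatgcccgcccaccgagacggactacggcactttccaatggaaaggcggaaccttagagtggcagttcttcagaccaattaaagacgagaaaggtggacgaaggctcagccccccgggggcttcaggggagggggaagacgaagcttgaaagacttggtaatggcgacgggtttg
Klf9, chr19:23140976-23141275, plus strand: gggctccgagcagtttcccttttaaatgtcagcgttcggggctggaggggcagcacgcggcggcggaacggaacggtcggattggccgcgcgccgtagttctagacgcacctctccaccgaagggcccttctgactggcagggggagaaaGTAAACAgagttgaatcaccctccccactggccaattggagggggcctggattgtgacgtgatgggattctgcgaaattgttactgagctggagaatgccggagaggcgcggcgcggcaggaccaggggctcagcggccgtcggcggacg
Btg2, chr1:134079106-134079405, minus strand: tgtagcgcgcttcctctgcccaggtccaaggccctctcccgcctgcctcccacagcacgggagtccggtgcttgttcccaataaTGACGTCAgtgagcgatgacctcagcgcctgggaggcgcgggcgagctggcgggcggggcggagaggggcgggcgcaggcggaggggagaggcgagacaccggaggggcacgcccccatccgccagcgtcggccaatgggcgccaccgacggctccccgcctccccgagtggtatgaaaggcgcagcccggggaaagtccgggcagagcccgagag
Of the more frequent motifs, the GC box GGGCGG was present in 9 of the 13 member promoters, against 35.7% of all promoters, and the shorter forkhead core TGTTT, which overlaps the longer motif, in 10 of 13 against 50.5%. The full palindromic glucocorticoid response element and the E-box CACGTG matched none of the 13 promoters, against 0.00913% and 7.15% of all promoters. At such shares nothing is read from their absence. Matches describe the letters in these windows.

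Total counts ran from 5032273 to 24191044 per library, and levels below are CPM, read counts divided by a library size that TMM factors adjust. The markers Il2ra and Cd4 went with the labels. Il2ra, which marks the DN3 stage, had median levels of 447 and 385 CPM in the DN3 groups and of 7.43 and 28.6 CPM in the DP groups. Cd4 was at 640 CPM or more in every DP library. Not all 8 genes of the DN3 marker list went with the labels. Rag1 had medians of 94.0 and 103 CPM in the DN3 groups and of 714 and 724 CPM in the DP groups. The Dntt median in DN3 autonomy, 1720 CPM, was below those of DP turnover, 3517 CPM, and DP autonomy, 2691 CPM. The summed DN3 markers had a median of 4072 CPM in DN3 autonomy and of 4458 CPM in DP turnover. DN3 turnover library RP1141B stood apart, with 135 CPM of Cd4, 386 of Cd8a and 617 of Cd8b1, while the medians of its group were 1.57, 7.12 and 19.7 CPM. The summed level of the 6 DP markers was 2349 CPM there and 784 to 1011 CPM in the other DN3 turnover libraries. For DN3 autonomy against turnover, member log2 changes and list counts that it changed are given with and without it. For contrasts between DN3 and DP cells, only some are. In libraries of many cells, fewer cells of a kind and less RNA per cell cannot be told apart.

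In DN3 cells, 8 of the 10 members had a lower fitted level in autonomy than in turnover and 2 a higher one, with a median log2 change of −1.60 against −0.05 over the 10766 genes tested. All 10 passed the filter on low counts. For 6 members, Pik3ip1, Hbp1, Klf9, Tsc22d3, Pdcd4 and Btg2, every autonomy library was below every turnover library. Over all genes tested, 10.1% had groups that did not overlap in this direction, and nothing is read from the members' count, since the choice of members used this contrast. Below, libraries are listed in the order RP1140A, RP1140B, RP1141A and RP1141B for turnover and RP1133, RP1134, RP1135, RP1137 and RP1138 for DN3 autonomy, means carry the SD over 4 or 5 libraries, and log2 changes carry the standard error (SE) of the edgeR fit.

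Pik3ip1, which dampens PI3 kinase at the top of the pathway, had the most negative DN3 log2 change of the members. Its levels were 166, 163, 141 and 201 CPM in DN3 turnover and 30.3, 22.1, 63.9, 15.1 and 14.7 CPM in DN3 autonomy. The groups stood apart, with RP1135 the highest autonomy library. The means were 168 ± 24.7 and 29.2 ± 20.4 CPM, a log2 change of −2.53 (SE 0.38), which was −2.43 without RP1141B and −3.04 without RP1135. Pik3ip1 (ENSMUSG00000034614) lies on the plus strand of chromosome 11 of GRCm38, from 3330401 to 3342971.

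Foxo1, the FoxO factor among the members, had a fitted change in the other direction. Its DN3 levels were 17.1, 17.3, 10.7 and 21.5 CPM in turnover and 30.4, 12.6, 25.9, 30.3 and 14.2 CPM in autonomy. The groups overlapped, with 3 autonomy libraries above every turnover library and the other 2 within the turnover range, and the log2 change was 0.43 (SE 0.32). Klf2, which keeps naive T cells at rest and is known as a FoxO1 target, was near the limit of detection, at 1.11, 2.31, 0.915 and 0.411 CPM in turnover and 4.89, 5.33, 3.79, 5.16 and 0.948 CPM in autonomy. Here 4 of the 5 autonomy libraries were higher than every turnover library and RP1138 was within their range, for a log2 change of 1.74 (SE 0.67). These values rest on 5 to 55 reads per library. Klf9, a KLF family factor that glucocorticoids induce in several tissues, was at 2.93, 4.68, 3.66 and 3.86 CPM in turnover and 1.33, 1.33, 0.798, 1.41 and 0.632 CPM in autonomy. Its groups did not overlap, and its log2 change was −1.80 (SE 0.52), from 37 to 67 reads per turnover library and 8 to 15 per autonomy library.

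The 2 BTG genes had unlike DN3 values. Btg2 was at 105, 90.2, 107 and 221 CPM in turnover and at 48.8, 43.7, 60.9, 41.9 and 41.3 CPM in autonomy. The groups did not overlap and RP1141B was far above the other turnover libraries. The log2 change was −1.48 (SE 0.25) with RP1141B and −1.10 (SE 0.18) without it. Btg1 was at 45.7, 44.9, 42.1 and 80.2 CPM in turnover and at 54.5, 24.6, 76.3, 36.2 and 20.2 CPM in autonomy, and the groups overlapped. RP1141B was again the highest turnover library, and the Btg1 log2 change of −0.34 (SE 0.36) came to −0.07 (SE 0.37) without it and to −0.67 without autonomy library RP1135.

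Both cell-cycle members had lower means in DN3 autonomy. Hbp1, the repressor that slows entry into S phase, was at 202, 167, 166 and 348 CPM in turnover and at 71.9, 55.5, 72.5, 42.1 and 46.6 CPM in autonomy. The groups stood apart also without RP1141B, its highest library, and the log2 change was −1.95 (SE 0.25) with that library and −1.64 (SE 0.20) without it. Exons of Hbp1 share 1514 bases with Cog5 on the opposite strand, and whether counting used strand is not given in these sources, so Hbp1 counts are uncertain; Cog5 itself had a log2 change of −0.53 (SE 0.25, edgeR adjusted p = 0.164). Ccng2 was at 38.7, 34.6, 19.0 and 43.7 CPM in turnover and at 19.6, 11.4, 23.3, 8.68 and 11.5 CPM in autonomy. Its groups met at RP1141A, the lowest turnover library, which lay below RP1133 and RP1135 of autonomy, and the log2 change was −1.20 (SE 0.33).

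Pdcd4, which holds back translation through eIF4A, was at 129, 228, 91.8 and 125 CPM in turnover and at 61.0, 17.8, 74.4, 37.5 and 30.0 CPM in autonomy. The groups did not overlap, and RP1140B was the highest of the DN3 libraries. The log2 change was −1.71 (SE 0.36), and −1.40 without RP1140B. Tsc22d3 was at 38.3, 23.0, 32.2 and 43.9 CPM in turnover and at 11.03, 9.03, 17.8, 4.46 and 7.59 CPM in autonomy. These groups did not overlap either, for a log2 change of −1.79 (SE 0.35). Without RP1141B the same 6 members had separate groups, and the median log2 change of the 10 was −1.37. The changes not yet given without that library were 0.58 for Foxo1, 1.46 for Klf2, −1.78 for Klf9, −1.05 for Ccng2, −1.77 for Pdcd4 and −1.65 for Tsc22d3.

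**Figure D1:**
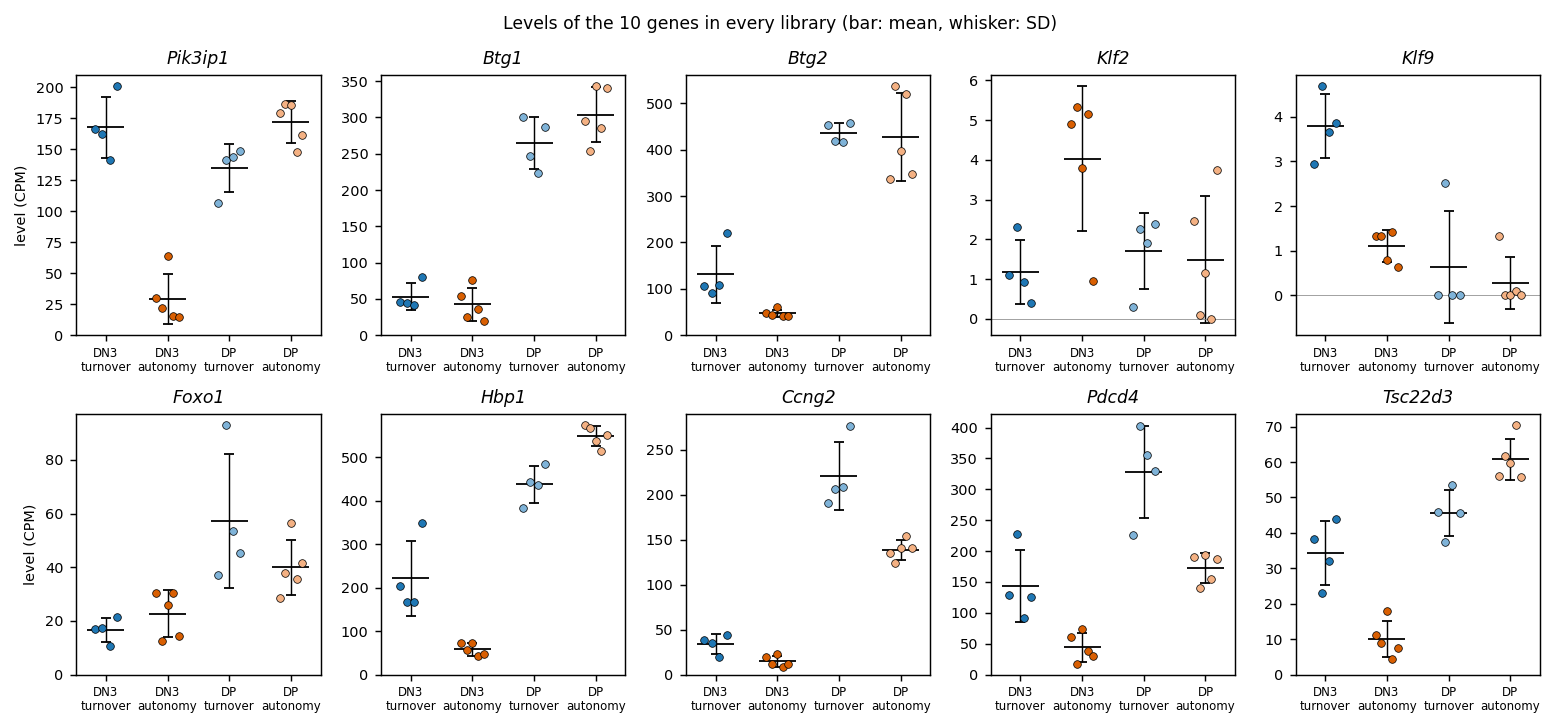
Level of each of the 10 genes in CPM, on linear axes, in every library of the 4 groups, with 1 point per library, a bar at the mean and a whisker of 1 SD. Pik3ip1, Hbp1 and Tsc22d3 are lowest in all 5 DN3 autonomy libraries, Btg1, Btg2 and Ccng2 are far higher in DP than in DN3 cells, and Klf2 and Klf9 are at 5.33 CPM or less in every library.

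Libraries of DN3 autonomy varied together across members. RP1135 was the highest of the 5 for 7 of the 10 members and RP1138 the lowest for 5. In DN3 turnover, RP1141B was the highest for 7 members and RP1141A the lowest for 6. The summed level of 15 cycling genes, among them Mki67, the Mcm2 to Mcm6 helicase genes and the cyclins Ccna2 and Ccnb1, ran the other way: it was 6978 to 7499 CPM in DN3 turnover and 9941 to 13095 CPM in DN3 autonomy, with RP1135 the lowest and RP1138 the highest of the autonomy libraries. All 15 cycling genes were tested and 13 passed as higher in DN3 autonomy, led by the cyclin E genes Ccne1 (log2 1.43, SE 0.26, edgeR adjusted p = 0.00367) and Ccne2 (1.29, SE 0.20, adjusted p = 0.00186). Without RP1141B 12 of the 15 passed as higher. With the A and B libraries of a number summed, 6 of the 15 passed, both cyclin E genes among them. Of 10766 genes, 6.53% passed in that direction. The part of cycling in the levels of the members was not tested.

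Marker lists of other cells also moved with the DN3 groups. The 7 mature T-cell markers summed to 1306 to 1799 CPM in turnover and 464 to 1144 CPM in autonomy, with RP1135 the highest of autonomy and S1pr1 at 0 in every DN3 library. The 7 early progenitor markers summed to 39.4 to 86.2 CPM and 4.46 to 27.4 CPM, with Lmo2 at 0 in autonomy. The 10 myeloid and dendritic markers summed to 42.2 to 55.6 CPM and 4.72 to 17.5 CPM, with Adgre1 and C1qc at 0 in turnover and Itgax and Siglech at 0 in autonomy. The 7 gamma-delta markers summed to 1544 to 1964 CPM and 684 to 1158 CPM, with Zbtb16 at 0 in turnover and Maf at 0 in autonomy. The 6 B-cell markers summed to 52.3 to 91.7 CPM and 13.5 to 42.4 CPM, with Ms4a1 and Pax5 at 0 in both. The 8 stromal markers summed to 181 to 216 CPM and 73.4 to 139.9 CPM, with Krt5 at 0 in both. The sum of the 7 NK markers went the other way without overlap, with Klrd1 at 0 in both groups. It was 1224 to 1707 CPM in turnover and 1852 to 2515 CPM in autonomy. Most of it was Gzma, at 1111 to 1572 CPM in turnover and 1844 to 2509 CPM in autonomy. Nkg7 was lower in autonomy without overlap, at 3.11 to 65.5 CPM against 113 to 161 CPM in turnover. The remaining NK markers were at 2.96 CPM or less in every DN3 library. The 8 DN3 markers summed to 5225 to 6706 CPM and 3195 to 6109 CPM, and the 5 erythroid markers to at most 6.22 CPM in any DN3 library, so that both sums overlapped. The part of these cells in the DN3 differences of the members was not tested.

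**Figure D2:**
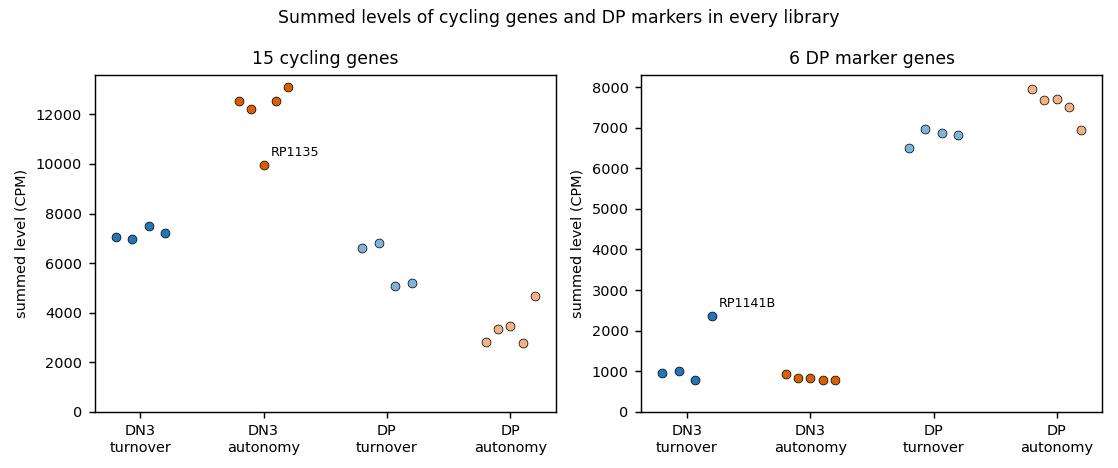
Summed level in CPM, on linear axes from 0, of 15 cycling genes (left) and of 6 DP markers (right) in each library of the 4 groups, 1 point per library. The cycling sum of the 5 DN3 autonomy libraries lies above the 4 DN3 turnover libraries, with RP1135 lowest at 9941 CPM, and DN3 turnover library RP1141B stands out among DN3 libraries with a DP marker sum of 2349 CPM.

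Between the DP groups, Pdcd4 and Ccng2 passed the edgeR quasi-likelihood test as lower in autonomy, no member passed as higher, and 7 did not pass. These DP libraries were not used to pick the members. Klf9 had too few reads to be tested, so 9 of the 10 members were. Of all 10339 genes tested, 0.861% passed as lower and 0.861% as higher. At an unadjusted edgeR p under 0.05, 4 members passed, 2 in each direction. The share of all genes at that cutoff is not given, here or for the lists below, so nothing is read from such counts. DESeq2 also called Pdcd4 and Ccng2 alone among the members, where it called 736 genes in all against 178 by edgeR. The median log2 change of the 9 members was −0.05, and that of all genes −0.02. In the paragraphs on DP cells the autonomy libraries are in the order RP1133, RP1135, RP1136, RP1137 and RP1138.

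Pdcd4 was at 226, 402, 355 and 330.1 CPM in DP turnover and at 191, 139.9, 193, 154 and 187 CPM in DP autonomy. All 5 autonomy libraries were below all 4 turnover libraries. The means were 328 ± 74.7 and 173 ± 24.3 CPM, 1.90-fold lower in autonomy (log2 −0.94, SE 0.17, edgeR adjusted p = 0.0208). The call was lost without DP turnover library RP1140B, RP1141A or RP1141B, at an adjusted p of up to 0.0790, and held without each of the other 6 libraries. Ccng2 was at 191, 207, 209 and 277 CPM in turnover and at 136, 124, 140.4, 154 and 141 CPM in autonomy, again with no overlap. It fell by 0.69 on the log2 scale (SE 0.15, edgeR adjusted p = 0.0379), and its call was near the threshold: it held without turnover library RP1140A or autonomy library RP1138 and was lost without turnover RP1140B, RP1141A or RP1141B or autonomy RP1133, RP1135, RP1136 or RP1137, with an adjusted p of up to 0.106. With the A and B libraries of a number summed, neither gene passed.

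Hbp1 and Tsc22d3, both lower in DN3 autonomy, had every DP autonomy library above every DP turnover library without passing the test. Hbp1 was at 384, 444, 436 and 485 CPM in turnover and at 573, 568, 537, 514 and 551 CPM in autonomy (log2 0.31, SE 0.11, edgeR adjusted p = 0.153). In the authors' deposited table, which holds DESeq2 results, the Hbp1 change of 0.31 had an adjusted p of 0.0406; DESeq2 run here gave 0.0505. Tsc22d3 was at 45.9, 37.4, 53.6 and 45.8 CPM in turnover and at 56.2, 61.6, 59.9, 70.3 and 55.8 CPM in autonomy (log2 0.40, SE 0.20, edgeR adjusted p = 0.340). Over all genes tested, 4.25% had groups that did not overlap in that direction, and 3.87% in the direction of Pdcd4 and Ccng2.

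The other members overlapped between the DP groups. Pik3ip1 was at 107, 141, 144 and 149 CPM in turnover and at 179.6, 186, 186, 148 and 162 CPM in autonomy, where only RP1137 came within the turnover range (log2 0.33, SE 0.16, edgeR adjusted p = 0.292). Btg1 ran from 223 to 301 CPM in turnover and from 254 to 343 CPM in autonomy (log2 0.18, SE 0.14, edgeR adjusted p = 0.574). Btg2 ran from 417 to 456 CPM and from 336 to 537 CPM, a wider range in autonomy on both sides (log2 −0.05, SE 0.15, edgeR adjusted p = 0.915). Foxo1 was at 36.9, 93.0, 53.4 and 45.2 CPM in turnover and at 28.5, 37.9, 56.3, 35.7 and 41.4 CPM in autonomy. RP1140B set much of the Foxo1 difference, which was −0.53 on the log2 scale (SE 0.30, edgeR adjusted p = 0.399) and −0.20 without that library. Klf2 stayed low, from 0.288 to 2.39 CPM in turnover and from 0 to 3.75 CPM in autonomy (log2 −0.23, SE 1.32, edgeR adjusted p = 0.953). No Klf2 read was counted in autonomy library RP1137, which allows up to 0.145 CPM there, and the Klf2 change was −0.94 without RP1138. Klf9 reads came almost only from turnover library RP1140B, with 66 reads or 2.52 CPM, and autonomy library RP1133, with 7 reads or 1.32 CPM. The 3 other turnover libraries had none, which allows up to 0.183 to 0.433 CPM.

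Cycling genes were lower in DP autonomy, opposite to DN3 cells. Their summed level was 5057 to 6791 CPM in DP turnover and 2753 to 4687 CPM in DP autonomy, and 4 of the 15 genes passed as lower and none as higher; with A and B libraries summed, none passed. The difference between the cell types passed the edgeR interaction test for 13 of the 15, while over all 11521 genes 2.88% passed as higher in DP than in DN3 cells and 2.61% as lower. Among the DP genes, Ccna2 fell by 1.64 on the log2 scale (SE 0.28, edgeR adjusted p = 0.0160), a call lost without turnover library RP1140B (adjusted p = 0.0609), and Mki67, a marker of dividing cells, fell by 1.30 (SE 0.26, edgeR adjusted p = 0.0293), a call lost without turnover RP1140A, RP1140B or RP1141B or autonomy RP1133 or RP1136, at up to 0.0808. Myeloid and dendritic markers summed to 7.99 to 27.1 CPM in DP turnover and 16.1 to 209 CPM in DP autonomy, with Csf1r, C1qc and Siglech at 0 in turnover and Adgre1 at 0 in autonomy. The part of either in the DP differences of the members was not tested.

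**Figure D3:**
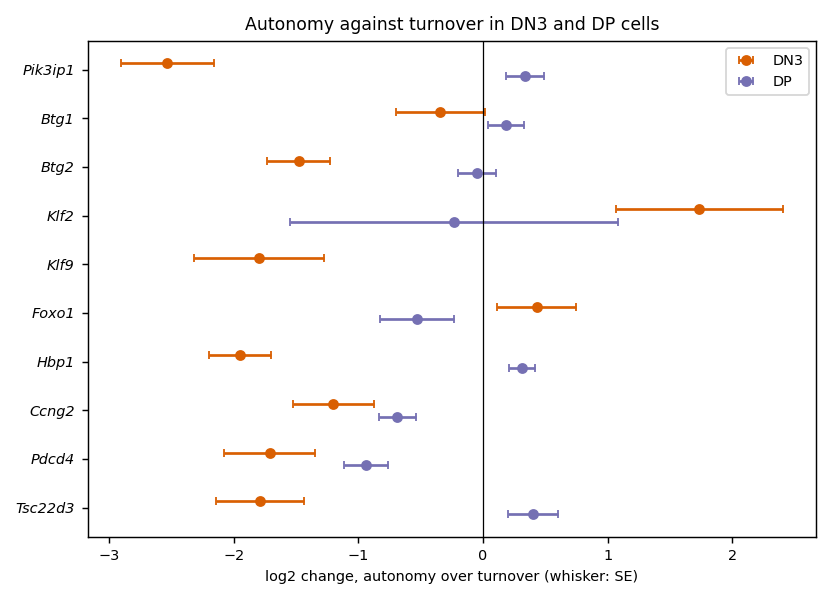
Log2 change of each gene in autonomy over turnover, in DN3 cells and in DP cells, with a whisker of 1 SE from the edgeR fit of each cell type. Pik3ip1 and Hbp1 are at −2.53 and −1.95 in DN3 cells and at 0.33 and 0.31 in DP cells, Pdcd4 and Ccng2 are below 0 in both, and Klf9 has no DP value because it had too few reads to be tested.

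Changes in the cell types were also set against each other. In a model of all 18 libraries, the autonomy change in DP cells minus that in DN3 cells was 2.87 on the log2 scale for Pik3ip1 (SE 0.44), 2.26 for Hbp1 (SE 0.29), 2.19 for Tsc22d3 (SE 0.42) and 1.44 for Btg2 (SE 0.31). It was nearer 0 for Pdcd4 at 0.78 (SE 0.45), Btg1 at 0.53 (SE 0.41) and Ccng2 at 0.51 (SE 0.36), and below 0 for Foxo1 at −0.96 (SE 0.46). The Klf2 value was −1.98 (SE 1.53) and that of Klf9 0.44 (SE 2.22), neither of them resolved at these read counts. Without RP1141B the difference was 1.94 for Hbp1, 1.05 for Btg2 and 0.25 for Btg1. These values contain the DN3 libraries that chose the members and carry no test.

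From DN3 to DP, most members were higher in the later stage. In turnover, 5 members had every DP library above every DN3 library, namely Btg1, Btg2, Foxo1, Hbp1 and Ccng2, and Klf9 had every DP library below. Over all 11521 genes tested, 14.9% did not overlap as higher and 19.9% as lower. In autonomy, 7 members had separate groups, all higher in DP: Pik3ip1, Btg1, Btg2, Hbp1, Ccng2, Pdcd4 and Tsc22d3, against 17.0% of all genes. The median log2 change of the 10 members from DN3 to DP was 1.10 in turnover and 2.59 in autonomy, and that of all genes −0.04 and −0.0030. Without RP1141B the turnover median of the members was 1.26. These contrasts share the DN3 libraries with the comparison above, so the DN3 autonomy levels enter both, and the members carry no test here.

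Btg1 and Ccng2 had the most positive fitted log2 changes from DN3 to DP in turnover. Btg1 went from a mean of 53.2 ± 18.1 CPM in DN3 to 264 ± 35.8 CPM in DP turnover (log2 2.32, SE 0.32) and from 42.4 ± 23.2 to 303 ± 37.9 CPM in autonomy (2.85, SE 0.30). Ccng2 went from 34.0 ± 10.7 to 221 ± 38.1 CPM in turnover (2.71, SE 0.28) and from 14.9 ± 6.23 to 139 ± 10.8 CPM in autonomy (3.22, SE 0.26). Pik3ip1 behaved otherwise. It was at similar means in DN3 and DP turnover, 168 ± 24.7 and 135 ± 19.2 CPM with libraries that overlapped (−0.30, SE 0.32), and it was at 29.2 ± 20.4 and 172 ± 16.8 CPM in DN3 and DP autonomy (2.57, SE 0.31). Tsc22d3 had the same shape, with 34.3 ± 8.95 and 45.6 ± 6.60 CPM in turnover (0.42, SE 0.31) and 9.99 ± 5.003 and 60.8 ± 5.89 CPM in autonomy (2.61, SE 0.29). Without RP1141B the turnover changes were 2.62 for Btg1, 2.89 for Ccng2, −0.17 for Pik3ip1 and 0.59 for Tsc22d3.

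Hbp1 and Btg2 lay between these patterns. Hbp1 went from 221 ± 86.3 to 437 ± 41.6 CPM in turnover (log2 0.99, SE 0.21; 1.33 without RP1141B) and from 57.7 ± 14.1 to 548 ± 23.9 CPM in autonomy (3.26, SE 0.21). Btg2 went from 131 ± 60.4 to 437 ± 21.3 CPM in turnover (1.75, SE 0.24; 2.15 without RP1141B) and from 47.3 ± 8.16 to 427 ± 95.05 CPM in autonomy (3.18, SE 0.23). The Pdcd4 log2 change was 1.20 in turnover (SE 0.34), with overlap, and 1.98 in autonomy (SE 0.31). That of Foxo1 was 1.79 (SE 0.35) and 0.83 (SE 0.31). Klf9 alone had a lower fitted level in DP under both conditions, at −2.51 (SE 1.54) and −2.06 (SE 1.44); without DP autonomy library RP1133 the latter was −4.65, and without DP turnover library RP1140B no DP turnover read was left and no fold is given. The Klf2 values were 0.53 (SE 1.13) in turnover and −1.44 (SE 1.03) in autonomy, the latter −2.16 without DP autonomy library RP1138.

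**Figure D4:**
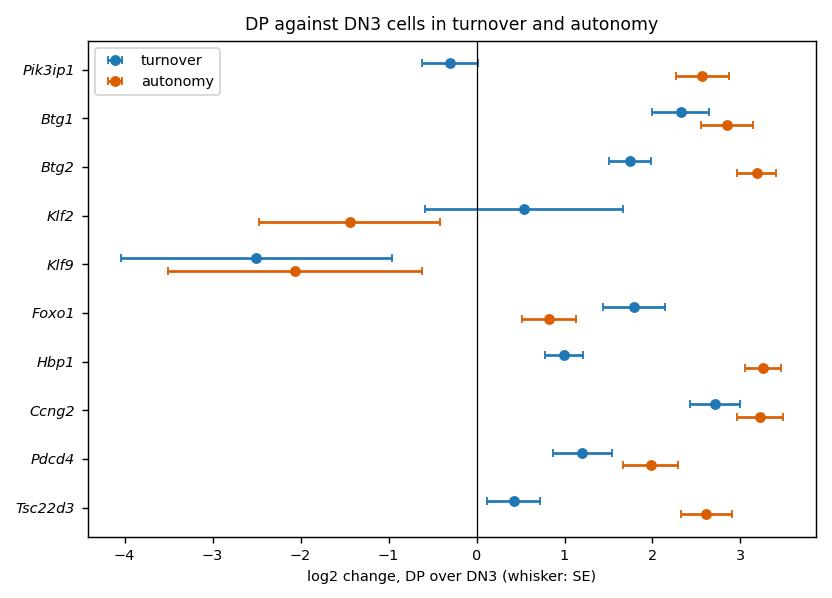
Log2 change of each gene from DN3 to DP in turnover and in autonomy, with a whisker of 1 SE from the edgeR fit of all 18 libraries. Btg1 and Ccng2 lie above 2 in both conditions, Pik3ip1 and Tsc22d3 are near 0 in turnover and above 2 in autonomy, and the Klf2 and Klf9 whiskers are the widest.

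Ordered by group, the members fell into a few shapes. For Hbp1 the 4 groups formed a ladder with no overlap between neighbours, from DP autonomy through DP turnover and DN3 turnover to DN3 autonomy. Btg2 had both DP groups on top, overlapping each other, then DN3 turnover, then DN3 autonomy. For Pik3ip1 the upper 3 groups, DP autonomy, DN3 turnover and DP turnover, overlapped from neighbour to neighbour and DN3 autonomy stood apart below. Tsc22d3 had DP autonomy on top and DN3 autonomy at the bottom, each apart from its neighbour, with DP turnover and DN3 turnover overlapping in between. Pdcd4 had DP turnover on top and DN3 autonomy at the bottom, each apart from its neighbour, with DP autonomy and DN3 turnover overlapping in between, and Ccng2 had DP turnover above DP autonomy above both DN3 groups, which overlapped. Btg1 separated by stage alone, and neighbours overlapped throughout for Foxo1 and Klf2. For Klf9 DN3 turnover stood apart on top and the other 3 groups overlapped.

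Compared per kilobase of exon, Btg2 had the highest mean level of the 10 members in every group, from 17.2 ± 2.97 CPM per kilobase in DN3 autonomy to 159 ± 7.78 in DP turnover. Pdcd4 came next in 3 groups, at 45.8 ± 18.8 in DN3 turnover, 14.1 ± 7.37 in DN3 autonomy and 105 ± 23.8 in DP turnover; in both DN3 groups it was below Btg2 by less than its own SD. In DP autonomy Hbp1 took that place at 88.9 ± 3.88, and Pdcd4 was at 55.2 ± 7.76, below Btg1 at 57.5 ± 7.18 and within its SD. Without RP1141B the DN3 turnover order changed: Pdcd4 came first at 47.7 ± 22.5 CPM per kilobase, and Btg2 at 36.8 ± 3.42 was next to Pik3ip1 at 36.7 ± 3.19. With all libraries, Pik3ip1 held the third place in DN3 turnover at 39.3 ± 5.78 CPM per kilobase and the fifth in DN3 autonomy at 6.84 ± 4.78. Foxo1 ranked 7 or 8 of the 10 in each group, at 1.92 ± 0.52 to 6.60 ± 2.87, and Klf9 and Klf2 were at most 2.18 CPM per kilobase in any group.

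Members were also compared by the shape of their log2 levels over the 18 libraries, centred per gene, where the root-mean-square difference is smaller for more alike shapes. The closest pair was Btg2 and Hbp1 at 0.34, then Hbp1 and Tsc22d3 at 0.40 and Pik3ip1 and Tsc22d3 at 0.44. Of all members, Pdcd4 was nearest to the mean shape at 0.57, and Klf2 at 2.12 and Klf9 at 3.01 were the farthest. Among 8110 genes with a mean of at least 10 CPM, the 5 that are not members and came nearest to the mean shape were Il17ra, the receptor chain for interleukin 17, at 0.31, Slc44a2 at 0.32, Acap1 and Klf3 at 0.33, and Nbr1, a selective autophagy receptor, at 0.34. Il17ra averaged 131 CPM in DN3 turnover, 75.1 in DN3 autonomy, 205 in DP turnover and 219 in DP autonomy. Without RP1141B the closest 3 pairs of members were the same, while Acap1 and Klf3 gave way to Trpc4ap, then nearest to the mean shape at 0.29, and Itpr1 at 0.32. Depth and cell type are shared by all points of such a comparison.

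Genes around the members in the same pathways were then counted from lists that exclude the members. The lists were chosen with earlier results of these data known. Their counts, medians and signs are therefore a description and no independent evidence. For every list below, the share of all genes tested that passed in DN3 cells was 8.35% as lower and 6.53% as higher. In DP cells it was 0.861% in each direction. Among FoxO factors and FoxO targets, 24 of 27 were tested in DN3 cells; 5 passed as lower in autonomy, 0 as higher and 19 did not pass, against 8.35% of all genes tested that passed as lower, with a median log2 change of −0.28 against −0.05 for all genes. Without RP1141B 4 passed as lower, and with the A and B libraries summed 3. Txnip, which limits glucose uptake, fell from 75.2 ± 32.7 to 21.9 ± 14.6 CPM (log2 −1.79, SE 0.44, edgeR adjusted p = 0.0178), and the call was lost without turnover library RP1140A or RP1140B, at up to 0.0632. Sesn1, a sestrin that restrains mTORC1, Pink1, a mitophagy kinase, and Bnip3, a mitophagy receptor, were also among the 5; the last 2 were chosen after their values were seen. The factors Foxo3 and Foxo4 had log2 changes of −0.60 (adjusted p = 0.351) and 0.21 (adjusted p = 0.840). Il7r, the interleukin 7 receptor chain, was at 145 ± 28.5 and 139 ± 53.4 CPM (−0.07, SE 0.24, adjusted p = 0.865), and was chosen, like these 2 factors, after its value was seen. In DP cells 1 of 23 passed, Bcl6, a repressor, which rose by 0.70 on the log2 scale (SE 0.14, adjusted p = 0.0297); the call was lost without turnover RP1140B, RP1141A or RP1141B or autonomy RP1133, RP1135 or RP1137, at up to 0.0934, and none passed with A and B libraries summed. DESeq2 called 5 of these genes in DP cells, and 7 passed at an unadjusted p under 0.05.

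Of the PI3 kinase and Akt list, 3 of 19 tested genes passed as lower in DN3 autonomy and none as higher, with a median of −0.54. Pik3cd, the leukocyte catalytic subunit p110 delta, fell from 122 ± 42.5 to 49.5 ± 16.2 CPM (log2 −1.31, SE 0.27, edgeR adjusted p = 0.00756). Sgk3, a kinase related to Akt and chosen after its value was seen, was also among the genes that fell. With A and B libraries summed, Pik3cd and Sgk3 passed in DN3 cells. In DP cells 1 of 18 passed, and none with those libraries summed.

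In the TSC and mTORC1 list, 1 of 24 tested genes rose and 3 fell in DN3 autonomy, with a median of −0.10. Rheb, the GTPase that activates mTORC1, rose from 238 ± 13.5 to 356 ± 35.9 CPM (log2 0.57, SE 0.13, edgeR adjusted p = 0.0128), a call lost without turnover RP1140A (0.0551). Sesn1 fell from 116 ± 15.3 to 59.8 ± 11.4 CPM (−0.97, SE 0.17, adjusted p = 0.00345). Fnip1, a folliculin partner, fell by 1.04 (SE 0.31, adjusted p = 0.0417) and kept its call only without turnover RP1141A or autonomy RP1134, at up to 0.116 otherwise; the GATOR1 subunit Nprl2, chosen after its value was seen, was the last that fell. Without RP1141B, 2 genes of the list rose and 1 fell, and with A and B libraries summed Sesn1 alone passed. In the eIF4F list, which holds the helicases that Pdcd4 binds, 1 of 11 passed, Eif4e, the cap-binding factor, from 280.2 ± 50.9 to 419 ± 72.7 CPM (0.57, SE 0.17, adjusted p = 0.0434). Its call held without turnover RP1141B or autonomy RP1134 or RP1135 and was lost without any of the other 6 libraries, at up to 0.107, and with A and B libraries summed. Eif4a1, the main target of Pdcd4 and named for that, was at 1848 ± 384 and 2499.9 ± 483 CPM in the DN3 groups (0.42, SE 0.19, adjusted p = 0.138). In DP cells none of 24 and none of 11 passed by edgeR; 1 and 4 did at an unadjusted p under 0.05, and 0 and 2 by DESeq2.

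The lists around Btg1 and Btg2, the KLF factors and the cell-cycle inhibitors came next, and nothing is read from their counts. Of all genes tested, 8.35% passed as lower in DN3 cells, and 0.861% in each direction in DP cells. Of 16 tested genes of the BTG/TOB family and the CCR4-NOT and PAN2-PAN3 deadenylases, 1 passed in DN3 cells, Pan3, which fell from 68.1 ± 18.5 to 30.6 ± 13.04 CPM (log2 −1.16, SE 0.30, edgeR adjusted p = 0.0234), a call lost without turnover RP1140B or RP1141A or autonomy RP1137 or RP1138, at up to 0.0691, and with A and B libraries summed. None of the 16 passed in DP cells by edgeR, 2 did at an unadjusted p under 0.05, and 1 by DESeq2. Among the KLF and Sp factors, 1 of 11 passed in DN3 cells, Klf3, a repressor of the family, which fell from 99.6 ± 20.3 to 45.0 ± 12.2 CPM (−1.16, SE 0.21, adjusted p = 0.00428) and kept its call without each library in turn and with A and B libraries summed. None of 9 passed in DP cells by edgeR, 1 did at an unadjusted p under 0.05, and 0 by DESeq2. Among the CDK inhibitors and pocket proteins, Cdkn1a, the p21 inhibitor, was the 1 of 16 that passed in DN3 cells, from 65.5 ± 5.93 to 22.2 ± 9.37 CPM (−1.57, SE 0.25, adjusted p = 0.00228), also with A and B libraries summed. In DP cells 2 of 17 passed, both as lower: Rb1, the retinoblastoma protein, at −1.80 (SE 0.27, adjusted p = 0.00967), and Cdkn2c, the p18 inhibitor, at −1.33 (SE 0.29, adjusted p = 0.0406), which kept its call only without turnover RP1141B, at up to 0.107 otherwise; neither passed with A and B libraries summed.

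All 18 tested genes of the T-cell quiescence list had a fitted log2 change below 0 in DN3 autonomy, and 3 passed the test. Their median was −0.56, against −0.05 over all genes tested. The share of all genes below 0 is not given, and nothing is read from the count of signs. Without RP1141B 15 of the 18 were below 0 and 1 passed, and with A and B libraries summed none passed. Mxd4, a Max partner that opposes Myc, fell from 37.9 ± 4.76 to 11.99 ± 8.61 CPM (log2 −1.67, SE 0.43, edgeR adjusted p = 0.0219), lost without turnover RP1140A or autonomy RP1138, at up to 0.0511. Arrdc3, an arrestin-domain protein, fell by 0.99 (SE 0.30, adjusted p = 0.0426) and kept its call only without turnover RP1141A or autonomy RP1134, at up to 0.118 otherwise. Dgkz, a diacylglycerol kinase that dampens receptor signals, was the last and was chosen after its value was seen. In DP cells 11 of 18 were above 0 and 1 passed, Zfp36, an mRNA decay factor, which rose by 0.97 (SE 0.23, adjusted p = 0.0492) and kept its call only without turnover RP1141B, at up to 0.131 otherwise, and lost it with A and B libraries summed.

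Of the glucocorticoid-responsive genes and TSC22 family, 3 of 12 tested genes passed in DN3 cells, all as lower. Without RP1141B these were joined by 1 that passed as higher, Dusp1, chosen after its value was seen, and with A and B libraries summed Tsc22d1 and Mt1 passed. Tsc22d1, a paralog of Tsc22d3, fell from 31.2 ± 10.7 to 3.81 ± 1.69 CPM (log2 −3.03, SE 0.36, edgeR adjusted p = 0.000358) and kept its call without each library. Nr3c1, the glucocorticoid receptor itself, fell from 288 ± 103 to 137 ± 39.5 CPM (−1.08, SE 0.27, adjusted p = 0.0183), lost without turnover RP1140A or RP1140B, at up to 0.0585. Mt1, a metallothionein with means of 3.51 CPM in DN3 turnover and 0.287 CPM in DN3 autonomy, was the last and was chosen after its value was seen. In DP cells 2 of 11 passed, in opposite directions: Nfkbia, the inhibitor of NF-kappa B, rose by 0.52 (SE 0.10, adjusted p = 0.0295), kept only without autonomy RP1136 or RP1138 and at up to 0.0817 otherwise, and Fkbp5, a chaperone of the receptor, fell from 176 ± 52.2 to 80.4 ± 6.23 CPM (−1.14, SE 0.20, adjusted p = 0.0160), lost without turnover RP1140B (0.0605) and kept with A and B libraries summed, unlike Nfkbia.

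**Figure D5:**
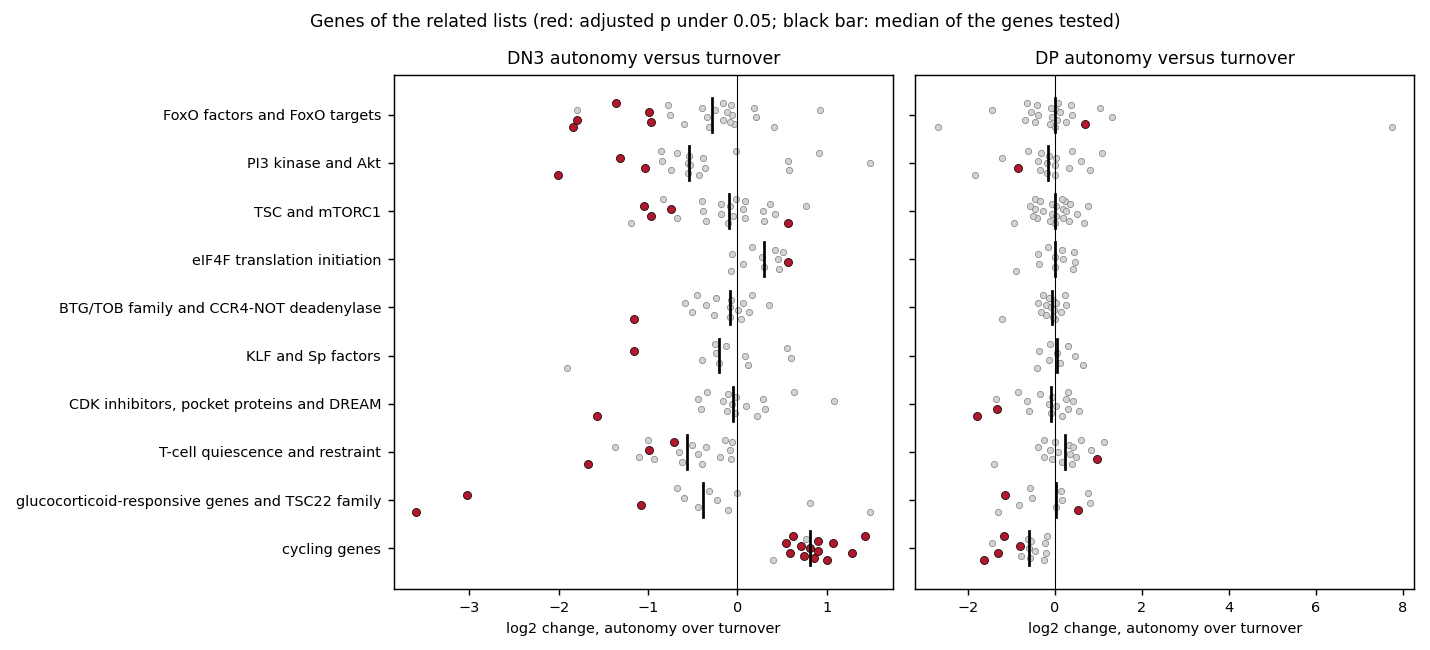
Log2 change in autonomy over turnover of every tested gene of 10 lists that exclude the members, in DN3 cells (left) and DP cells (right), 1 point per gene, with genes past an edgeR adjusted p of 0.05 in red and a black bar at each list's median. The DN3 median is −0.56 for the T-cell quiescence list and 0.81 for cycling genes, and the DP medians of the 9 lists without cycling genes lie between −0.16 and 0.23. The DP point at 7.74 is Il7r, which had no read in DP turnover, so that its fitted size is no measured fold.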

How the data were processed

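RNA was measured in sorted DN3 and DP thymocytes with Pico Nextera libraries, per the labels' protocols. The authors deposited raw whole-number counts per gene for 22619 genes in 18 libraries. The submitters' processing notes name the builds mm10 and GRCm38 and the tools HISAT2, featureCounts, FastQC and DESeq2; versions, settings and the use of strand were not given in these sources. The authors' deposited DESeq2 tables, per the file headers, hold a base mean (a signal of normalised counts), log2 fold changes with standard errors, a test statistic (a score), p-values and adjusted p-values; only their log2 changes and adjusted p-values are quoted, where named.

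From the counts, TMM-scaled CPM were computed, and edgeR 4.0.16 (R 4.3.3; glmQLFit, glmQLFTest, filterByExpr) tested autonomy against turnover within each cell type and, over all 18 libraries with 4 group means, DP against DN3 and the difference of the autonomy effect. P-values were adjusted by Benjamini-Hochberg over all genes tested, with a threshold of 0.05. The script was tested on simulated data. The members and the gene lists were chosen with earlier results of these data known. Genes were named by a rule: all members, per list, cell type and direction up to 2 passing genes with the largest log2 change and at least 10 CPM on average in the higher group, the 5 genes of most similar shape, and markers; any others are marked where they occur as chosen with values in view, and a few genes are not reported here. Coordinates come from GENCODE M21, exon lengths are merged exons, and promoters come from RefSeq.

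Total counts were 5032273 to 24191044. A count of 0 allows up to 3 counts, which covers counting error only. Among the 32 pairs of libraries within a group, the chi-square of the counts per degree of freedom was at least 23.0, so none agreed within sampling noise, and Pearson correlations of log2 CPM over genes were 0.885 to 0.978. Alternatives were DESeq2 1.42.0 size factors, the DESeq2 test, no filter, each library left out, A and B libraries summed, all 18 libraries in 1 fit, and the RP number as a block.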

Additional observations from a re-analysis of the deposited data

Results flagged for a closer look

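Of 40 checks of a member in a group of 4 or 5 libraries, 4 had a library far from the others, where chance flags about 1 in 20 groups. In DN3 turnover, library RP1141B was far above the other 3 for Btg1, at 80.2 CPM, and for Btg2, at 221 CPM; this is the library with 135 CPM of Cd4, and the part of its DP transcripts in these levels was not tested. Klf9 was at 2.52 CPM in DP turnover library RP1140B with no read in the other 3, and at 1.32 CPM in DP autonomy library RP1133 with 0.0965 CPM in 1 of the others and no read in 3, which allows up to 0.312 to 0.450 CPM there.

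The autonomy effect in DP cells minus that in DN3 cells passed the edgeR interaction test over all 18 libraries for several restraint-linked genes named above. It was 0.98 on the log2 scale for Sesn1 (adjusted p = 0.00918), 2.06 for Mxd4 (0.0165) and 2.46 for Tsc22d1 (0.0127), which kept their calls without each library in turn. It was 2.49 for Bcl6 (0.0381), 1.04 for Klf3 (0.0371) and 1.25 for Nprl2 (0.0271), whose calls were lost without DN3 turnover library RP1141B, at 1.17 for Bcl6 (adjusted p = 0.108), 1.03 for Klf3 (0.0666) and 1.15 for Nprl2 (0.0706), and were lost in 12, 10 and 5 of the 18 fits that each left out 1 library. The Il7r value of 7.86 (0.00293) is no measured fold, since DP turnover held no read of it. For cycling genes it passed with the opposite sign, at −2.87 for Ccne1 (adjusted p = 0.000750), −1.83 for Ccne2 (0.00299), −2.54 for Ccna2 (0.000641) and −2.15 for Mki67 (0.00230). Among the members, every DN3 autonomy library was below and every DP autonomy library above the turnover libraries for Hbp1, with a difference of 2.26, and for Tsc22d3, with 2.19; these differences were not tested, since the DN3 libraries chose the members.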

How the results depend on the processing

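With the A and B libraries of a number summed, 507 genes passed in DN3 cells against 1602, 16 in DP cells against 178, and 0 members in DP cells against 2. With all 18 libraries in 1 fit, 1006 genes passed in DN3 cells and 279 in DP cells, and 0 members. DESeq2 called 736 genes in DP cells and 1037 for the difference between the cell types, against 633. Leaving out 1 library at a time gave 811 to 1784 genes in DN3 cells, 33 to 252 in DP cells, 3163 to 3940 for DP against DN3 in turnover, 5144 to 5544 in autonomy, 424 to 684 for the difference, and 0 to 2 members in DP cells. The DP log2 change of Btg2 ran from −0.15 to 0.0255, above 0 without autonomy RP1133 or RP1138, and that of Klf2 from −0.94 to 0.10, above 0 without autonomy RP1135 or RP1137; none passed. DN3 and DP libraries share RP numbers, and the 8 pairs had correlated deviations of 0.0089 to 0.046. In turnover 1 of 4 pairs and in autonomy 3 of 4 were each other's best match, and the number expected by chance was not computed. Whether the numbers pair the libraries is therefore not settled, and the main fits treat them as unpaired. With the number as a replicate block, 3604 genes passed for DP against DN3 in turnover, 4822 in autonomy and 291 for the difference. The main fits had 4021, 5643 and 633. The summed and left-out fits used fewer libraries; other causes were not tested. By DESeq2 the PI3 kinase, eIF4F, BTG and CDK inhibitor lists had 6, 3, 2 and 2 calls in DN3 cells against 3, 1, 1 and 1 by edgeR. In DP cells the FoxO, PI3 kinase, CDK inhibitor, quiescence and cycling lists had 5, 2, 4, 3 and 7 against 1, 1, 2, 1 and 4. Calls lost with A and B libraries summed are given with each list. Reads limit Klf2 and Klf9, whose DP values rest on 66 reads or fewer per library.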
